A study of Mus musculus with 12 samples.

Results

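The interferon-gamma inducible GTPases described here are 10 mouse genes, chosen by name: the guanylate-binding proteins Gbp2, Gbp3, Gbp4, Gbp5, Gbp6 and Gbp7, and the immunity-related GTPases Igtp, Irgm1, Irgm2 and Iigp1. All 10 were found among the 24452 gene symbols of the count table, and all 10 passed the filter on low counts that left 14618 genes for testing. They were measured by RNA sequencing of kidney cortex from C57BL/6 mice labelled as adult males, in 12 libraries that fall into 4 groups of 3. Glomerulonephritis (GN), an inflammation of the glomeruli where blood is filtered, was set off with intraperitoneal horse spleen apoferritin, 10 mg given 5 times a week, plus 100 µg of lipopolysaccharide from Salmonella given 3 times a week as adjuvant, both for 6 weeks. Controls received saline on that schedule, and cortex was taken at 9 weeks. The control water and GN water groups drank water, and the control captopril and GN captopril groups were labelled with captopril, an inhibitor of angiotensin converting enzyme, at a dose that the labels do not give. Because the adjuvant is a bacterial product that acts on innate immunity, and controls had saline alone, the GN groups differ from controls by both agents together. Neither pooling of mice within a library nor separate animals as replicates is stated, so p-values measure the spread between these libraries.

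Interferon-gamma is a cytokine of activated T and natural killer cells. It binds the receptor encoded by Ifngr1 and Ifngr2, which signals through the kinases Jak1 and Jak2, and transcription factors such as Irf1 then raise a set of target genes. Among the most strongly induced targets in mice are these GTPases, which gather on vacuoles that hold bacteria or parasites, help to break them open and are tied to autophagy and to inflammasome caspases. In tissue they can be made by macrophages, by endothelium and by epithelium.

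Total counts ran from 14173432 to 22842783 per library, and levels are given as CPM, each library's counts brought to a common total with composition scaling. Every library was labelled male, but sex-linked transcripts split the groups. The control water and GN captopril groups held Y-linked transcripts at a summed 121 to 144 CPM and Xist, the transcript of the inactive X chromosome, at no more than 0.182 CPM. The control captopril and GN water groups held Xist at 181 to 375 CPM and Y-linked transcripts at no more than 0.101 CPM. Thus 6 libraries go against the label, and within control or within GN the captopril label and the sex-linked transcripts cannot be told apart. Groups are named here as labelled. Whether group labels were exchanged was not tested. An exchange of the water and captopril labels within control or within GN would turn the direction of the captopril comparison there. In 3 comparisons of GN with control both sides match in the kind of these transcripts, Xist or Y-linked. The first is GN averaged over both treatments (6 libraries against 6, 3 of each kind on each side). The others are GN water against control captopril, and GN captopril against control water. These 2 pairs differ in the captopril label as well as in disease. Captopril averaged over control and GN also has 3 libraries of each kind on each side. The kind is matched and not the level: Xist read 181 to 212 CPM in GN water and 314 to 375 CPM in control captopril. A further limit is that control captopril 3 and GN captopril 3 held 7011 and 1658 adrenal cortex marker counts.

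The stretches before 6 of the genes are printed because the motifs read by interferon-activated factors lie there. They come from the RefSeq promoter table of build GRCm38.p6, from which 8 windows of 300 bases were taken for 7 of the 10 genes. Each stretch is cut where its gene begins. Capitals mark matches to 2 motifs searched on both strands, overlapping matches included: the core of the interferon-stimulated response element (ISRE), which is GAAA followed after any 2 bases by GAAA, and the gamma-activated site (GAS), TTCNNNGAA. The stretches are Gbp2 at chr3:142620413-142620662 (plus strand), Gbp3 at chr3:142559794-142560015 (plus strand), Gbp7 at chr3:142530086-142530335 (plus strand), Igtp at chr11:58199306-58199555 (plus strand), Irgm2 at chr11:58214727-58214976 (plus strand) and Irgm1 at chr11:48871421-48871670 (minus strand), and each is written 5′ to 3′ on its gene's strand.
Gbp2: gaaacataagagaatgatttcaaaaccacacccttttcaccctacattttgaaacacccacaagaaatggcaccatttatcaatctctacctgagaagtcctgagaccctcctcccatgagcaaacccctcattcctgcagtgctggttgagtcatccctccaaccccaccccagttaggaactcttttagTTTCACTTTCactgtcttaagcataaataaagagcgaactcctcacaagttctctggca
Gbp3: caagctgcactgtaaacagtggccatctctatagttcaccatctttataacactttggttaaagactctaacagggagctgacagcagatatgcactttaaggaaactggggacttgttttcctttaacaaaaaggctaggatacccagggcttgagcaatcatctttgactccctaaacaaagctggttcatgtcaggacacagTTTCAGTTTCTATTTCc
Gbp7: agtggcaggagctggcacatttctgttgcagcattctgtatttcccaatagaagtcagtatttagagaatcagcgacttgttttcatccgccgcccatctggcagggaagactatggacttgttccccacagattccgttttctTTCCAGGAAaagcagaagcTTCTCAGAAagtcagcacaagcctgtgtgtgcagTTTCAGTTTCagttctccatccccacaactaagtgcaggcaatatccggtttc
Igtp: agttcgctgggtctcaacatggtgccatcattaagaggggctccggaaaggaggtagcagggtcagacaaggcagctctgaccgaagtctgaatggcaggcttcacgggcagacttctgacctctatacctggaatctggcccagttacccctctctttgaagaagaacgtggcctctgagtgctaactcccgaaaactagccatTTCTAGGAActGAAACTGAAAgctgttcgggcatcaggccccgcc
Irgm2: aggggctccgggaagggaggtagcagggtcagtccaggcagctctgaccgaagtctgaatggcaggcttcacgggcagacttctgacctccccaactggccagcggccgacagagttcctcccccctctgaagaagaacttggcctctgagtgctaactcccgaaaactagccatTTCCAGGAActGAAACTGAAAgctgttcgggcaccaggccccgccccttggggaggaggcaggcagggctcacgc
Irgm1: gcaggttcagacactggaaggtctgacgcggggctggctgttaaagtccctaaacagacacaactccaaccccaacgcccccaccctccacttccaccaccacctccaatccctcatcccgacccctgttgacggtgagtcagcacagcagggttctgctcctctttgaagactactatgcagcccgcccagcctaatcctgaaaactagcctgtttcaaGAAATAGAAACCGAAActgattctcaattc

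All 7 genes searched had an ISRE match in a window, against 3.44% of the 32851 windows in the table. Gbp5, Gbp7, Igtp and Irgm2 also had a GAS match, against 8.3% of windows, and both motifs stood together in 0.454% of windows. Gbp3 and Irgm1 each carried 2 ISRE matches that overlap. A second Gbp3 window, at a start inside the gene, had neither motif. Igtp and Irgm2, neighbours on chromosome 11, shared an unbroken run of 61 bases, while Gbp3 and Gbp7, neighbours on chromosome 3, shared at most 13. A match is only a match of letters. Of the other 3 members, Gbp4 and Gbp6 had no window there, and Iigp1 was left out of the search.

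Of the members, 9 are placed here from RefSeq's GRCm38.p6 annotation. Gbp5 (142496934 to 142522344), Gbp7 (142530336 to 142550151), Gbp3 (142560016 to 142573213) and Gbp2 (142620663 to 142638008) lie in this order on chromosome 3, with Gbp2b between Gbp3 and Gbp2. Gbp4 (105115767 to 105139586) and Gbp6 (105270702 to 105295871) are on chromosome 5, and Irgm1 (48865245 to 48871420), Igtp (58199556 to 58207592) and Irgm2 (58214977 to 58222783) are on chromosome 11, where Igtp and Irgm2 are neighbours and Irgm1 lies apart. Near-identical relatives make some counts uncertain: 90.2% of the 50-base words of Gbp6's longest coding transcript also occur in the predicted gene Gm43302 and 62.3% in Gbp10, so the Gbp6 value may hold reads of those genes. For the other 9 members the shared part was 12.8% or less, and Gbp3 shared 4.8% of its words with Gbp7.

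Levels between genes can be compared only per length, here as CPM per kilobase of the longest coding transcript. Irgm1, a regulator that keeps other GTPases off the cell's own membranes, had the highest mean level per length in all 4 groups, from 29.5 ± 1.12 CPM per kilobase (SD, n = 3) in control water to 53.8 ± 18.6 (SD, n = 3) in GN captopril. Gbp5, which promotes inflammasome assembly, had the lowest in all 4, from 1.08 ± 0.07 (SD, n = 3) in control water to 3.28 ± 0.214 (SD, n = 3) in GN water. In GN water Gbp5 and Gbp4 (3.34 ± 0.312 CPM per kilobase, SD, n = 3) did not differ beyond their spread, nor did Irgm2 (14 ± 2.45) and Iigp1 (13.6 ± 2.01). Libraries of Gbp5 and Gbp4 also overlapped in control captopril (1.54 ± 0.394 and 2.03 ± 0.28) and in GN captopril (2.69 ± 1.09 and 3.17 ± 0.825). In GN captopril those of Igtp (35.8 ± 21) overlapped those of Irgm1. Library by library, Gbp5 was below Gbp4 in all 3 of each captopril group, and Igtp below Irgm1 in all 3 of GN captopril. These orders were not tested. Gbp3 changed its place most: it was the seventh in level per length in control water (3.37 ± 0.33, SD, n = 3) and the second in control captopril (28.4 ± 6.38, SD, n = 3). There its libraries overlapped those of Irgm1 (31.6 ± 3.75). They also did in GN water (33.1 ± 4.2 for Gbp3 and 39.2 ± 5.78 for Irgm1, SD, n = 3 each). Library by library, Gbp3 was below Irgm1 in all 3 of GN water but not in all 3 of control captopril. The order of Irgm1 and Gbp3 is thus not settled in control captopril, and it was not tested in GN water.

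All 10 GTPases were higher in GN averaged over both treatments, with log2 fold changes from 0.59 (Irgm1) to 1.65 (Iigp1) and a median of 1.06, against -0.01 over all genes tested. Each passed edgeR's quasi-likelihood test with Benjamini-Hochberg adjustment over all genes at 0.05, where 16.3% of the genes tested were called higher. In 5 of the 10 (Gbp2, Gbp4, Gbp6, Irgm2 and Iigp1) every GN library lay above every control library, which held for 5.38% of genes tested. Of all genes called, 52.7% were higher, and 78.2% when libraries were scaled by totals alone, where the 10 GTPases were called higher too. In whole cortex, more cells of a type and more RNA per cell cannot be told apart.

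**Figure D1:**
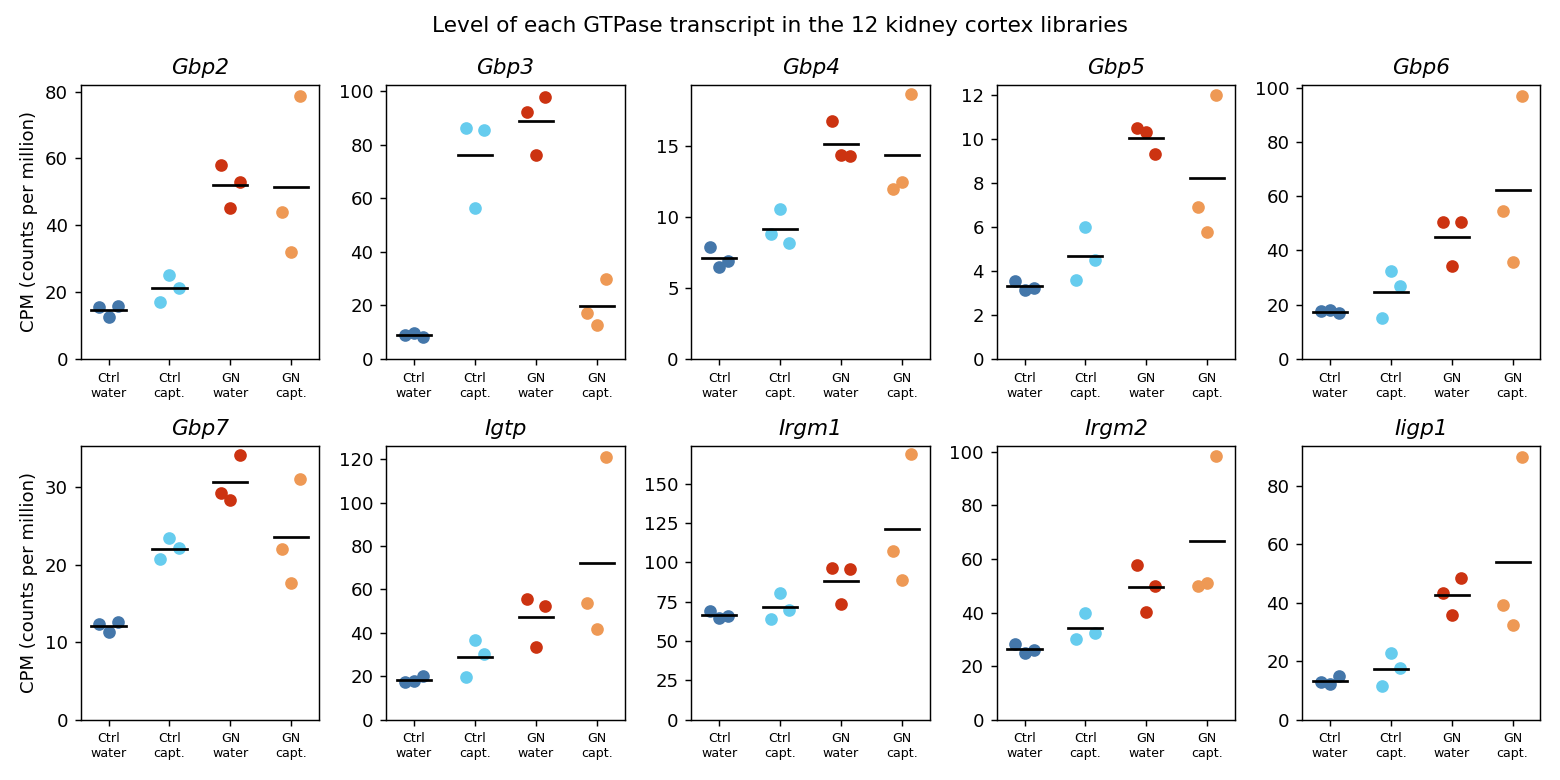
Level of each of the 10 GTPases in CPM (vertical axis, from 0, own scale per gene) in the 12 libraries, by group (horizontal axis); points are libraries in the order of replicates 1 to 3 and bars are group means. For 5 of the 10 genes every GN library sits above every control, Gbp3 is highest in control captopril and GN water, and GN captopril 3 is the highest library for 8 genes.

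Among the guanylate-binding proteins, Gbp2, which coats vacuoles and bacteria, stood at 15.6, 12.6 and 15.8 CPM in control water and at 17, 25.2 and 21.3 CPM in control captopril. It reached 58, 45.3 and 52.9 CPM in GN water and 44.1, 31.9 and 78.7 CPM in GN captopril. The lowest GN library was above the highest control. Its change in the GN average was 1.55 ± 0.18 (log2, SE), 2.93-fold, with an edgeR quasi-likelihood adjusted p of 4.1e-05. Gbp5 read 3.54, 3.15 and 3.22 CPM in control water, 3.59, 5.98 and 4.5 in control captopril, 10.5, 10.3 and 9.29 in GN water and 6.91, 5.76 and 12 in GN captopril. GN captopril 2 fell below control captopril 2, so its groups overlapped, and the change in the GN average was 1.20 ± 0.17 (log2, SE).

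Gbp4 ran from 6.49 to 10.6 CPM in the 6 control libraries and from 12 to 18.7 CPM in the 6 GN libraries, with no overlap, and rose by 0.87 ± 0.12 (log2, SE). Gbp6 ran from 15.2 to 32.3 CPM in controls and from 34.2 to 96.9 CPM in GN, again without overlap, and rose by 1.34 ± 0.23 (log2, SE). Gbp7, a member of the chromosome 3 cluster, ran from 11.3 to 23.4 CPM in controls and from 17.7 to 34.2 CPM in GN. Its groups overlapped because control captopril already read 20.7, 23.4 and 22.1 CPM, and it rose by 0.71 ± 0.11 (log2, SE). The Gbp3 change in the GN average was 0.67 ± 0.18 (log2, SE; edgeR adjusted p = 0.0115), the weakest call of the 10, and its levels are taken up separately.

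Among the immunity-related GTPases, Iigp1, an effector that loads onto parasite vacuoles, stood at 12.8, 12.4 and 15 CPM in control water and at 11.4, 22.8 and 17.6 CPM in control captopril. It reached 43.4, 35.9 and 48.5 CPM in GN water and 39.3, 32.5 and 89.9 CPM in GN captopril. Every GN library exceeded every control, and the change of 1.65 ± 0.24 (log2, SE; 3.14-fold; edgeR adjusted p = 0.000174) was the largest of the 10. Irgm1, its regulator, started from a high level and moved least: 64 to 80.6 CPM in controls and 73.4 to 169 CPM in GN, with overlap, and a change of 0.59 ± 0.13 (log2, SE; edgeR adjusted p = 0.00469).

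Igtp (Irgm3) and Irgm2, the other regulators, changed by 1.34 ± 0.24 and 0.93 ± 0.16 (log2, SE). Igtp ran from 17.3 to 36.5 CPM in controls and from 33.7 to 121 CPM in GN, and GN water 2 (33.7 CPM) fell below control captopril 2 (36.5 CPM). Irgm2 ran from 24.8 to 39.9 CPM in controls and from 40.4 to 98.6 CPM in GN, which did not overlap.

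In GN captopril against control water, both with Y-linked transcripts, all 10 GTPases were called higher, where 7.05% of genes were, with a median log2 fold change of 1.31 against -0.02 over all genes. All 10 were also free of overlap, as were 14.7% of genes. In GN water against control captopril, both with Xist, the median was 0.72, with that over all genes at 0.0012, and 5 of 10 were called higher, where 16.9% of genes were: Gbp2 (1.3 ± 0.25), Gbp4 (0.72 ± 0.16), Gbp5 (1.10 ± 0.23), Gbp7 (0.47 ± 0.15) and Iigp1 (1.3 ± 0.32, all log2, SE). There 7 of 10 did not overlap, as did 25.4% of genes. The values not called were 0.22 ± 0.22 for Gbp3, 0.86 ± 0.31 for Gbp6 (edgeR adjusted p = 0.0542), 0.71 ± 0.33 for Igtp, 0.31 ± 0.19 for Irgm1 and 0.53 ± 0.22 for Irgm2.

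The count of 5 was 8, with Gbp6, Igtp and Irgm2 added, when GN captopril 3 was left out, and 4, with Gbp7 lost, when control captopril 1, control captopril 3, GN water 1 or GN water 3 was. In all, Gbp7 lost its call in 5 of 12 leave-one-out fits (edgeR adjusted p up to 0.158). In the fit with 8, 4654 of 14795 genes were called in either direction. The 2 pairs were not shown to differ: the change in GN captopril against control water minus that in GN water against control captopril passed the test for no member. This is the test of captopril averaged over control and GN, at 2 times its size, and no separate evidence. That difference was largest for Igtp (1.26 ± 0.48, log2, SE; edgeR adjusted p = 0.131).

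**Figure D2:**
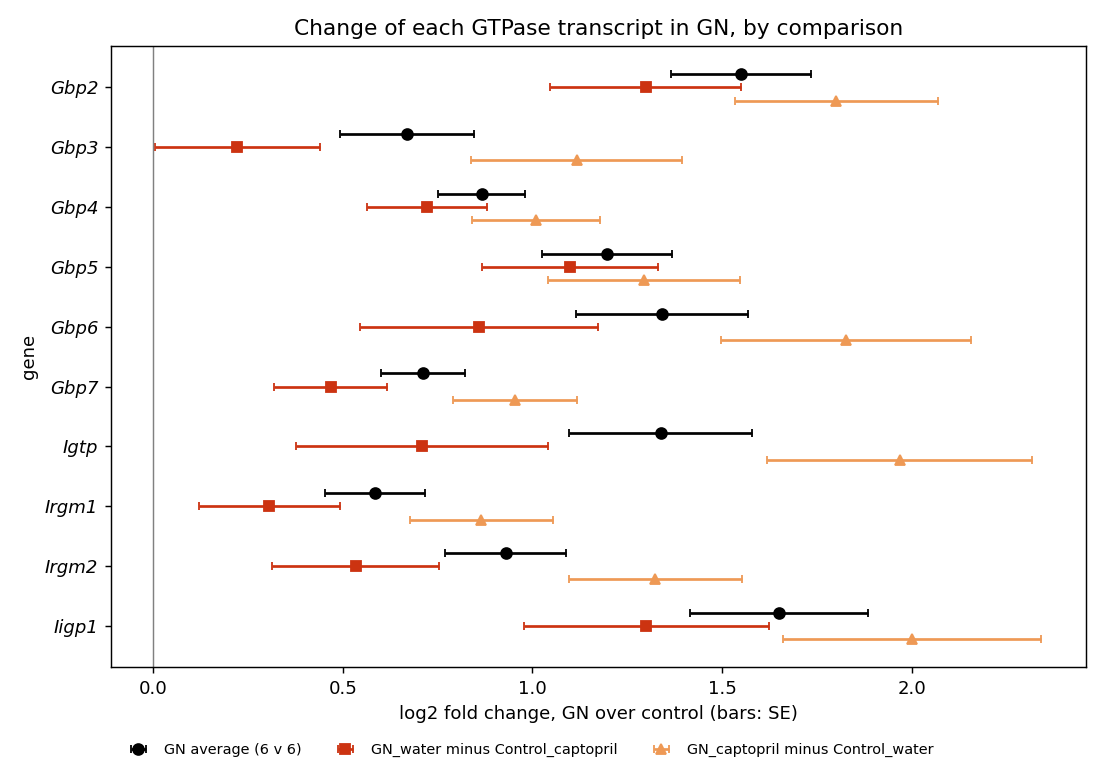
Log2 fold change of GN over control (horizontal axis) for each GTPase (vertical axis) in the GN average, in GN water against control captopril and in GN captopril against control water; bars are SE. All point estimates lie above 0, from 0.22 for Gbp3 in GN water against control captopril to 2.0 for Iigp1 in GN captopril against control water.

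One library carried much of the spread. GN captopril 3 was the highest of all 12 libraries for 8 of the 10 genes and the highest GN captopril library for all 10, at 1.53 (Gbp4) to 2.52 (Igtp) times the mean of the other two. It also held more macrophage markers (a summed 1210 CPM, against 621 and 631) and adrenal markers (119 CPM, against 1.13 and 19.2), whose part in this was not tested. Without it all 10 genes were still called higher in the GN average, with a median of 0.88. In GN captopril against control water the median was then 0.93 and 9 were called: Gbp3 fell from 1.12 to 0.71 (log2; edgeR adjusted p = 0.0731) and Irgm1 from 0.87 to 0.55. The Gbp3 call in this comparison was also lost without control water 1, 2 or 3 (edgeR adjusted p = 0.0609, 0.0526 and 0.0619).

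Against the control of the same treatment label, 9 of 10 were called higher in GN water over control water, where 27.4% of genes were. Irgm1, at 0.41 ± 0.19 (log2, SE; edgeR adjusted p = 0.0838), was not called. In GN captopril over control captopril 8 were called higher, where 20.5% of genes were, and Gbp3 was called lower by 1.95 ± 0.24 (log2, SE), where 19.3% were. Gbp7 stood at 0.08 ± 0.15. Without GN captopril 3, Gbp5 lost its call (0.43 ± 0.19, log2, SE; edgeR adjusted p = 0.097), Gbp7 stood at -0.16 and the median of the 10 went from 0.88 to 0.51. These 2 comparisons set groups with Xist against groups with Y-linked transcripts.

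Gbp3, a guanylate-binding protein encoded between Gbp7 and Gbp2b, was split by the sex-linked transcripts, beside its call in the GN average. It read 9.07, 9.89 and 8.12 CPM in control water and 17.1, 12.7 and 29.8 CPM in GN captopril. It read 86.3, 56.3 and 85.6 CPM in control captopril and 92.3, 76.2 and 97.9 CPM in GN water. All 6 libraries with Xist were above all 6 with Y-linked transcripts, the gap lying between 29.8 and 56.3 CPM. Of the 10 genes only Gbp3 had no overlap in this split, which 9.5% of genes tested did.

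Averaged over disease, Gbp3 was 2.62 ± 0.18 higher (log2, SE) in the groups with Xist, 6.17-fold, with an edgeR quasi-likelihood adjusted p of 6.3e-08. In size this ranked 139 of 14618 genes. The test is that of the interaction of disease and treatment labels, which these groups make the same contrast, and it called 50.7% of genes tested, 27.1% in the direction of Gbp3. Gbp7 was the other member called, 0.63 ± 0.11 higher (log2, SE), 1.54-fold (edgeR adjusted p = 0.00038). The remaining 8 ran from -0.18 ± 0.13 (Irgm1) to 0.40 ± 0.17 (Gbp5). Without GN captopril 3, Gbp2, Gbp4 and Gbp5 were called as well, 5 members in all. That fit called 7504 of 14795 genes, in either direction.

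Within 200 kb of Gbp3, 6 other genes were tested, and Gbp7, which ends 9.9 kb before it, was the only one called. Gbp5 stood at 0.40 ± 0.17, Gbp2 at 0.27 ± 0.18 and Gbp2b at 0.92 ± 0.44 (log2, SE; groups with Xist minus groups with Y-linked transcripts), none called. Pdlim5 (0.06 ± 0.05) and Gtf2b (-0.02 ± 0.05), at the edges of that stretch, stood near 0. Among the 7 genes tested in this stretch the difference was largest at Gbp3.

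**Figure D3:**
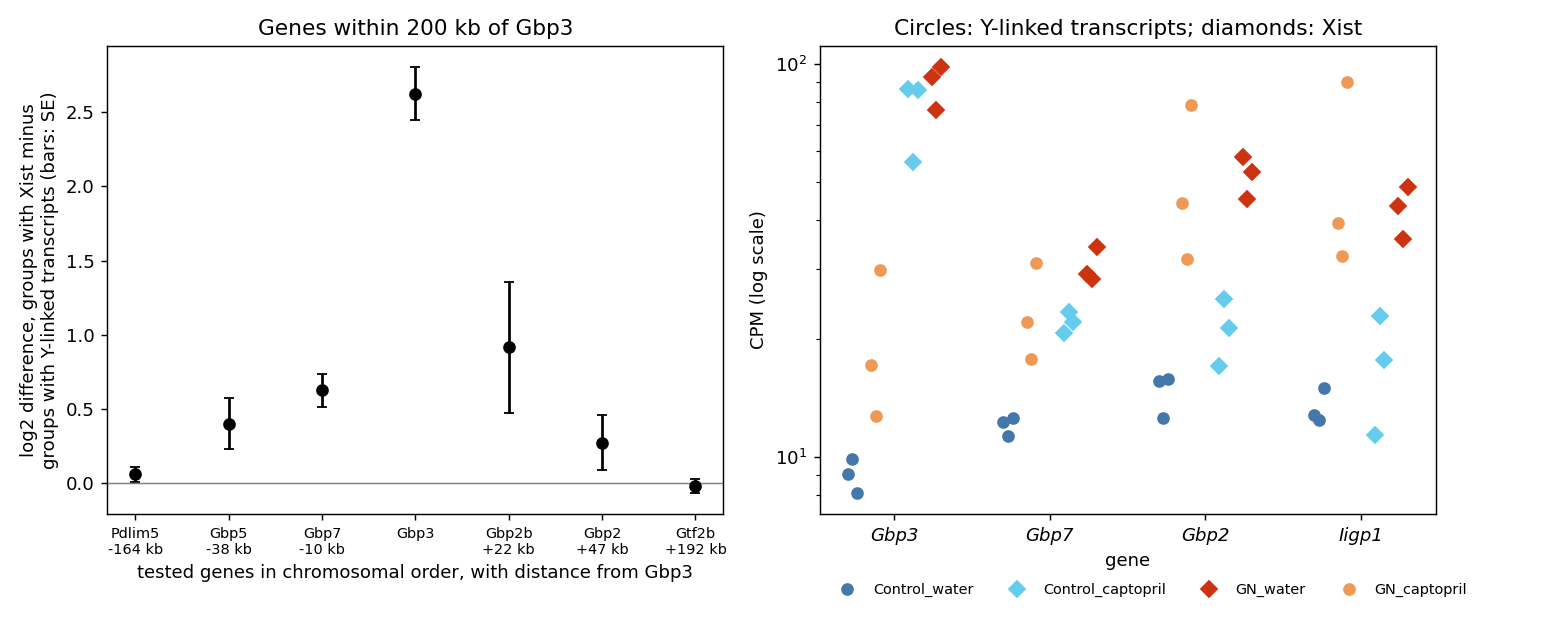
Left, log2 difference of the groups with Xist minus the groups with Y-linked transcripts (vertical axis, bars SE) for the 7 tested genes within 200 kb of Gbp3, in chromosomal order with distance (horizontal axis). Right, CPM on a log axis of Gbp3, Gbp7, Gbp2 and Iigp1 by library; for Gbp3 all diamonds (Xist) lie above all circles (Y-linked transcripts), and for Gbp2 and Iigp1 they mix.

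Gbp3 was also compared within each marker kind. From control water to GN captopril it rose by 1.12 ± 0.28 (log2, SE; 2.17-fold), and from control captopril to GN water it stood 0.22 ± 0.22 higher, which was not called. The difference between these changes, 0.90 ± 0.35 (log2, SE), did not pass that same test (edgeR adjusted p = 0.142).

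With captopril in GN, 1 of 10 GTPases was called, Gbp3, lower by 2.18 ± 0.24 (log2, SE; edgeR adjusted p = 1.19e-05), where 25.5% of genes were called lower, 19.6% higher and 45.1% in either direction. Gbp7 stood at -0.38 ± 0.15 (edgeR adjusted p = 0.0531) and was called lower with libraries scaled by totals alone, and with no filter on low counts. The median of the 10 was 0.15 against -0.05 over all genes, and it was -0.28 without GN captopril 3, when Gbp2, Gbp5 and Gbp7 joined Gbp3 as lower. Without GN captopril 2, Gbp6, Igtp and Irgm1 were called higher. Over all genes 6397 of 14795 were called in either direction without GN captopril 3, and 5440 of 14813 without GN captopril 2. Beside this, 14 of 15 macrophage markers, 16 of 18 type I interferon genes and 5 of 13 T and natural killer cell markers tested were lower in GN captopril than in GN water, and the Xist split lies across the same groups.

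With captopril in controls, Gbp3 was higher by 3.07 ± 0.26 and Gbp7 by 0.87 ± 0.16 (log2, SE), 2 of 10, where 15.4% of genes were called higher. Without GN captopril 3, a library of neither group that enters the estimate of the spread and the filter on low counts, 7 of 10 were. Over all genes 4885 of 14795 were then called in either direction. Averaged over control and GN, where marker kinds are level, captopril gave 0 of 10 by edgeR and 0 by DESeq2, where 6.51% of genes were called in either direction and 3.17% higher. At an unadjusted p under 0.05 edgeR's test gave 4 (Gbp3, Gbp7, Igtp and Irgm2), all higher with captopril, where 23.9% of genes passed in either direction and 10.2% were higher. The median of the 10 was 0.31 against -0.02 over all genes, from 0.10 ± 0.17 (Gbp5) to 0.63 ± 0.24 (Igtp; edgeR adjusted p = 0.131).

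The ligand itself was near the limit of detection. Ifng had 22 counts over the 12 libraries, from 0 to 7 in each and 0 in 4 of them, with 13 in GN water, 5 in GN captopril, 3 in control water and 1 in control captopril. It was too low to be tested, and Il12b, a cytokine subunit that drives its production, had 51 counts. Above them, 12 of the 14 tested genes of the ligand, receptor and signalling list were higher in the GN average and none lower. The receptor chains Ifngr1 (0.54 ± 0.06) and Ifngr2 (0.48 ± 0.06) rose, as did the transcription factors Irf1 (0.98 ± 0.08), Irf8 (0.71 ± 0.06) and Stat2 (0.45 ± 0.07) and the feedback inhibitor Socs3 (1.66 ± 0.15, all log2, SE). The kinases Jak1 (-0.02 ± 0.05) and Jak2 (0.09 ± 0.05) were not called.

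Irf1, which binds ISRE-type sites, read 18.1 to 24.6 CPM in the 6 controls and 35.3 to 49.9 CPM in the 6 GN libraries, without overlap. It was higher in both pairs that match in the kind of sex-linked transcript, by 0.81 ± 0.12 in GN water over control captopril and by 1.14 ± 0.12 in GN captopril over control water (log2, SE).

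Most other interferon-inducible GTPases were higher too. Of 13 tested, 12 were higher in the GN average and none lower, with a median of 1.37. Among the immunity-related GTPases, Gm4951 rose by 1.56 ± 0.18, Ifi47 by 1.53 ± 0.18, Tgtp2 by 1.37 ± 0.20 and Tgtp1 by 1.58 ± 0.26 (log2, SE). The very large GTPases Gvin1 and Gm4070 both rose by 0.94 ± 0.11, at nearly equal CPM in each group, so their reads may be shared. Mx2, annotated as a transcribed pseudogene in this strain's reference, stood at 0.47 ± 0.22 and was not called, and Gbp11 had 36 counts in all. In GN water over control captopril, both with Xist, 10 of 13 were higher. In GN captopril over control water, both with Y-linked transcripts, 11 of 13 were.

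All 16 tested genes of the other interferon-gamma target list were higher in the GN average, with a median of 1.18. Icam1, an adhesion molecule, rose by 0.90 ± 0.06, the Fc receptor gene Fcgr1 by 1.78 ± 0.17, the complement inhibitor gene Serping1 by 1.0 ± 0.10, and the peptide transporter gene Tap1 by 1.31 ± 0.15. Nlrc5 and Ciita, the activators of MHC class I and class II genes, rose by 1.38 ± 0.16 and 1.14 ± 0.13 (all log2, SE). Cxcl11 and Ido1, with 40 and 34 counts in all, were too low to be tested.

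Genes of the type I interferon response, a related list that partly shares ISRE-type control, were higher in 14 of 18 cases in the GN average, with a median of 0.59. Zbp1 (1.74 ± 0.21), Oasl2 (0.84 ± 0.11), Rtp4 (0.74 ± 0.12) and Ddx58 (0.35 ± 0.06) rose, and Rsad2 (0.10 ± 0.06) and Cmpk2 (-0.08 ± 0.08, all log2, SE) were not called. In GN water over control captopril 14 of 18 were higher, where 16.9% of all genes were, with a median of 0.92, where the 10 GTPases had 0.72. In GN captopril over control water 4 of 18 were higher, where 7.05% of all genes were, with a median of 0.40, where the GTPases had 1.31. The GTPase median there was 0.93 without GN captopril 3. In the interaction contrast 17 of 18 type I genes and 2 of the 10 GTPases were called lower, where 27.1% of genes were. The count of GTPases was 5 without GN captopril 3 and 4 with libraries scaled by totals alone. In those fits 7504 of 14795 and 8583 of 14618 genes were called in either direction.

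The partner list of autophagy and inflammasome genes split. The core autophagy genes did not rise: Gabarapl1 fell by 0.41 ± 0.05, and Gabarap (0.06 ± 0.05) and Map1lc3b (-0.10 ± 0.05, log2, SE) were not called. The inflammasome genes did: Casp4 rose by 2.04 ± 0.16, Casp1 by 1.71 ± 0.24 and the pore protein gene Gsdmd by 0.99 ± 0.14 (log2, SE). In all, 5 of 17 were higher and 4 lower in the GN average, with a median of -0.05.

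**Figure D4:**
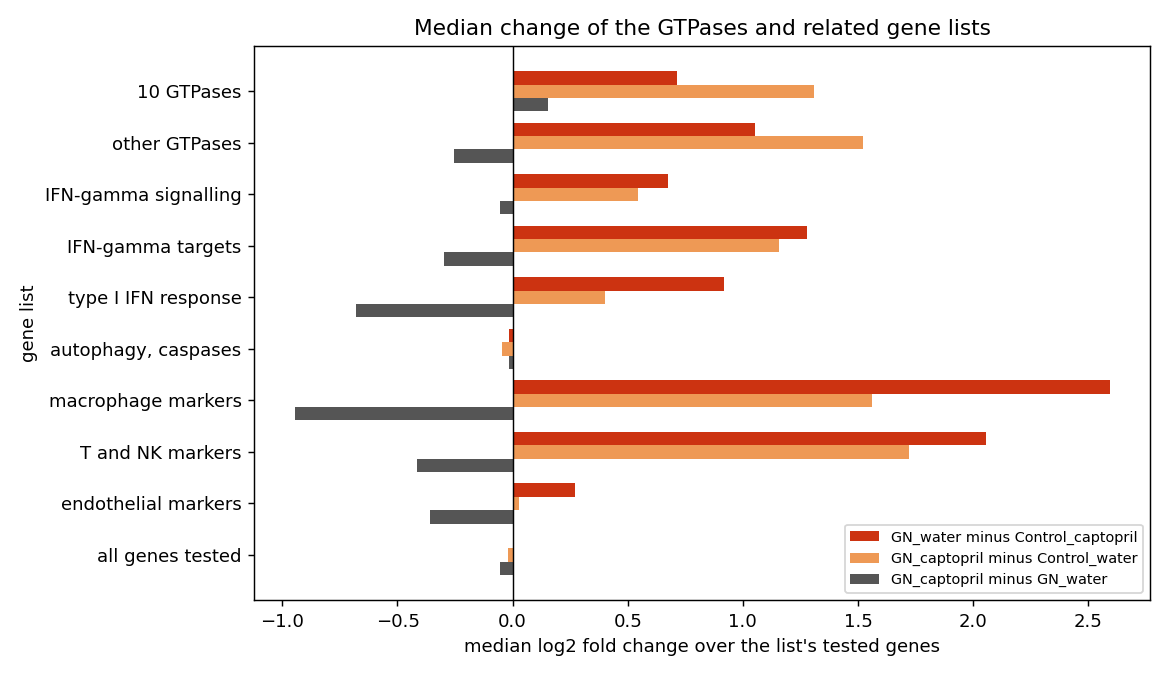
Median log2 fold change (horizontal axis, bars from 0) over the tested genes of each list (vertical axis), in GN water over control captopril, in GN captopril over control water and in GN captopril over GN water. The 10 GTPases have medians of 0.72, 1.31 and 0.15, while the type I interferon list has 0.92, 0.40 and -0.68.

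Markers of cells that make or answer interferon-gamma rose in the same libraries. All 15 macrophage and monocyte markers were higher in the GN average, their summed level being 175 to 259 CPM in controls and 621 to 1810 CPM in GN. Adgre1 rose by 2.78 ± 0.21 and Cd68 by 1.93 ± 0.20 (log2, SE). Of 13 tested T and natural killer cell markers 12 were higher, with a summed 6.5 to 13.5 CPM in controls and 29.4 to 56.2 CPM in GN. The 1 not called was Klrb1c, a natural killer cell marker. Cd3e rose by 1.54 ± 0.20 and Nkg7 by 2.38 ± 0.25 (log2, SE), and no library was at 0 for either. Endothelial markers were split, 4 of 12 higher and 3 lower. The part of these cells in the rise of the GTPases was not tested.

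GN water had the higher macrophage sum (1290 to 1810 CPM, against 621 to 1210 CPM in GN captopril), and Gbp6, Igtp, Irgm1, Irgm2 and Iigp1 had higher means in GN captopril. In CPM, Iigp1 was 42.6 ± 6.33 in GN water and 53.9 ± 31.4 in GN captopril, and Irgm1 was 88.5 ± 13.1 and 122 ± 42.2 (SD, n = 3 each). None of these 5 differed by the test between the 2 groups, and the higher means rest in whole or in part on GN captopril 3. Without it the log2 differences of GN captopril minus GN water were -0.0006 (Gbp6), 0.02 (Igtp), 0.14 (Irgm1), 0.03 (Irgm2) and -0.25 (Iigp1).

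The genes whose profiles over the 12 libraries lay closest to the mean profile of the 10 were Cd274, Tgtp2, Tap1, Psmb10, Gvin1, B2m, Ccl4 and Fgl2. Likeness was the root-mean-square difference of log2 CPM centred per gene, 0.21 for Cd274 to 0.26 for Fgl2, with a median of 0.68 over all genes tested. It is a description, over 12 libraries that share the 2 disease labels. Of the members themselves, Gbp5 lay closest (0.17) and Gbp3 farthest (1.15), the other 8 running from 0.22 to 0.38. With Gbp3 left out of the mean profile 5 of the 8 named genes stayed, and Irgm2 (0.17) lay closer than Gbp5 (0.19).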

How the data were processed

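Stranded mRNA sequencing was done on 12 kidney cortex libraries, per the labels' protocols. The deposited table holds estimated counts per gene symbol (86.9% of entries whole, within 1e-09), and the submitters' processing notes name Bowtie2, Partek and the mouse build mm10, without saying whether counting used strand. A deposited RPKM table was not used. Counts were rounded, normalised by TMM and filtered with filterByExpr (minimum count 10, minimum total 15). Each group was given a mean in edgeR 4.0.16 (R 4.3.3), whose quasi-likelihood test was adjusted by Benjamini-Hochberg over 14618 genes, with an adjusted p under 0.05 called.

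Groups came from the disease state and treatment labels. The 9 contrasts, and the lists of related genes and cell markers, were set with earlier results of these data known, as were the members. Genes named from a list were up to 6 (4 for the type I interferon and autophagy lists) with the smallest adjusted p in the GN average, and up to 3 (2) of the highest level among those not called or not tested. Likeness named 8 genes, predicted genes left out, on log2 CPM with a prior count of 2. Further genes are named beside a result that turns on them.

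Alternatives were DESeq2 1.42.0 and its size factors, library totals alone, no filter, a mean of at least 1 CPM, counts rounded down, only the groups compared, each replicate left out, the 2 libraries with most adrenal counts left out, and a block by the numbers in the sample titles. Likeness was also run with a prior count of 0.5, with the mean absolute difference, and, chosen after seeing the data, without Gbp3. Depth of 14173432 to 22842783 counts limits genes of a few counts, such as Ifng. The values of 1 gene of the related lists are not reported here.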

Additional observations from a re-analysis of the deposited data

Results flagged for a closer look

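Groups of 3 libraries were not searched for single outlying libraries. The effect of GN differed between the captopril and water labels, by a test of the difference itself (the interaction in edgeR's quasi-likelihood test, Benjamini-Hochberg adjusted), for 2 of the 10 GTPases and for 20 of 45 other tested genes given with values here, the sex-linked transcripts apart, where 50.7% of all genes tested were called. The same contrast sets the groups with Y-linked transcripts against those with Xist, and the part of each cannot be told apart. Values are the change in GN with captopril minus that with water, in log2.

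For Gbp3 it was -5.25 ± 0.36 (SE) and for Gbp7 -1.25 ± 0.22. In the signalling list, Ifngr1 (-0.44), Jak2 (-0.26) and Socs3 (-1.29) changed less or fell more with captopril, and Jak1 (0.46) went the other way. The target genes Serping1 (-0.87), B2m (-0.66) and Psmb10 (-0.63) were on the negative side, as were Ccl4 (-1.37) and Fgl2 (-0.79), named for their likeness to the members, and the T cell marker Cd3e (-1.25). Of their whole lists, 4 of 16 tested targets and 3 of 13 tested T and natural killer cell markers were called lower and none higher. Over all genes 27.1% were called lower. The type I interferon genes Rsad2 (-0.54), Oasl2 (-1.18), Ddx58 (-0.65), Cmpk2 (-0.59), Rtp4 (-0.94) and Zbp1 (-1.46) were all on the negative side. So were Map1lc3b (-0.28), Gabarapl1 (-0.42), Casp1 (-1.24) and Gsdmd (-1.10) of the autophagy and inflammasome list. That list was split, with 5 of 17 called lower and 3 called higher, Map1lc3a, Sqstm1 and Atg3.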

How the results depend on the processing

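The 10 calls of the GN average were kept in all 12 leave-one-out fits and under every other alternative run for it. With library totals alone the median of all genes moved by 0.2 (GN water over control water), -0.142 (GN captopril over GN water), 0.112 (captopril in controls) and -0.255 (interaction).

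For GN water over control captopril 8 members were called without the 2 libraries with most adrenal counts and with only the groups compared, and 4 to 8 with replicates left out. Over all genes 3894 of 14757 and 5090 of 14472 were called in the first 2 of these, in either direction. For GN captopril over GN water 2 were called with library totals alone, with no filter, at a mean of at least 1 CPM and with the replicate block, and 3 without the adrenal libraries, against 1. Over all genes 7733 of 14618, 6362 of 18848, 6450 of 13484, 6765 of 14618 and 6274 of 14757 were called, in that order of settings. Leave-one-out fits gave 1 to 4. Captopril in controls gave 5 with only the groups compared and 2 to 7 leave-one-out. Over all genes 4243 of 14081 were called with only the groups compared, and 4885 of 14795 without GN captopril 3, the fit with 7. The interaction gave 4 with library totals alone, 5 without the adrenal libraries and 2 to 5 leave-one-out. Over all genes it called 8583 of 14618 with library totals alone, 7041 of 14757 without the adrenal libraries and 7504 of 14795 without GN captopril 3. The 4 and 5 members of the interaction were all called lower, while these totals count genes in either direction. In the main fit 27.1% of genes were called lower in it, and that share was not taken for the other fits. The cause of these moves was not tested.

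The Gbp3 call in GN captopril over control water was lost without the adrenal libraries (edgeR adjusted p = 0.0739) and without GN captopril 3 or any 1 control water library.

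Uncalled values changed sign. For GN captopril over GN water, Gbp2 was 0.0072 in DESeq2 and 0.025 with only the groups compared, Gbp6 was -0.0004 and Iigp1 -0.25 without the adrenal libraries. Leave-one-out ranges there were -0.46 to 0.24 (Gbp2), -0.31 to 0.051 (Gbp4), -0.0006 to 0.75 (Gbp6) and -0.25 to 0.60 (Iigp1). In the captopril average Gbp5 was -0.072 without the adrenal libraries and -0.086 to 0.20 leave-one-out. In the interaction Irgm2 was -0.20 with library totals alone and -0.37 without the adrenal libraries, and the leave-one-out ranges were -0.51 to 0.24 (Gbp6), -0.63 to 0.24 (Igtp), -0.34 to 0.23 (Irgm2) and -0.62 to 0.23 (Iigp1). Likeness shared 5 of 8 genes when Gbp3 was left out of the profile.

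Over all genes, GN captopril over control water had 1765 calls, and 952 with only the groups compared, 936 without the adrenal libraries and 968 without GN captopril 3. The captopril average had 952, and 523 to 1471 leave-one-out. The title numbers did not pair the libraries: deviations of same-numbered libraries correlated at -0.235 to 0.236, over 0.1 in 4 of 18 pairs. The replicate block gave 6765 calls for GN captopril over GN water, against 6594.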

Other observations

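Lists not used above gave these counts in the GN average, by edgeR's test adjusted over all genes. Of 8 B and plasma cell markers 7 were higher and none lower, and their summed level was 21.4 to 27.8 CPM in controls, 238 to 741 CPM in GN water and 64.3 to 133 CPM in GN captopril. Of 3 neutrophil markers tested 3 were higher, while Ly6g and Mpo had 1 count each over the 12 libraries. Of 9 proximal tubule markers 6 were lower and none higher, and of 6 podocyte markers 2 were higher and 3 lower. Of 5 adrenal cortex and 4 adipocyte markers tested none was called in either direction.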
